A study of Mus musculus with 18 samples.

Results

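Interferon-stimulated genes are genes whose RNA rises when a cell receives an interferon signal. A list of 34 mouse genes of this kind was drawn up by symbol, and no measured value entered the rule, though earlier results of these data were known. Of these, 32 were found among the 27743 genes of the deposited table, with Rigi in the place of its older symbol Ddx58, and Mx1 and Mx2 were not analysed here. The 32 comprised 3 transcription factors (Irf7, Irf9 and Stat2), 5 sensors of foreign or misplaced nucleic acid (Rigi, Ifih1, Dhx58, Ddx60 and Zbp1) and 4 IFIT genes (Ifit1, Ifit2, Ifit3 and Ifit3b). They further held 6 genes of the OAS family (Oas1a, Oas1g, Oas2, Oas3, Oasl1 and Oasl2), the 2 guanylate-binding GTPases Gbp2 and Gbp3, and the 2 genes Isg15 and Usp18 of the ISG15 system. The other 10 were effectors of various kinds (Rsad2, Cmpk2, Bst2, Ifi44, Xaf1, Rtp4, Parp14, Ifi27l2a, Ifi35 and Trim30a).

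Type I interferons bind a receptor of the subunits IFNAR1 and IFNAR2, whose kinases JAK1 and TYK2 phosphorylate transcription factors such as STAT2. STAT2 joins IRF9 in a complex that binds interferon-stimulated response elements in the promoters of such genes. IRF7, itself induced, drives further interferon transcription, and USP18 dampens the receptor. In wounded skin, type I interferons are known as early products of plasmacytoid dendritic cells, and interferon gamma from lymphocytes induces many of the same genes.

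RNA was sequenced from mouse skin flaps collected at day 7. Control flaps received no treatment after the flap model was made. The 5 other groups had a mesh-like spacer under the flap, printed by near-field electrostatic printing with various diameters and spacings, and are labelled D15L100, D15L150, D15L200, D100L150 and D150L150. Each group had 3 libraries, and the labels give no strain, genotype, age or sex. What D and L stand for is not stated, nor whether 1 animal gave 1 library, so that p-values here measure only the spread between these libraries. Libraries held 28422344 to 35327357 fragments, recovered from the steps of the FPKM values (fragment counts divided by gene length and library depth), with 11778 to 12488 genes at 1 FPKM or more. All 6 keratinocyte markers listed were measured, at a summed 1252 FPKM in Control 1 up to 10307 FPKM in D15L150 3. Mitochondrially encoded genes held 3.35% to 12.54% of the summed FPKM, most in Control 1. Control 3, D150L150 1 and D150L150 3 stood apart from their group mates in the interferon-stimulated genes. Differences of the spacer mean from Control are given below with and without Control 3 for the genes described in detail. All 32 genes were highest in Control 3 within Control, so leaving it out could only raise these differences. The values without it are therefore no separate support for a difference. Ranges with each library left out are given near the end for most of these genes.

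All 32 genes passed the filter on low values, 1 FPKM or more in 3 or more of the 18 libraries, as did 13078 genes in all. Their mean FPKM over the 18 libraries ran from 4.38 (Ddx60) to 204.6 (Bst2), with a median of 27.2. None of the 32 passed the test for a difference between the 6 groups. The same genes differed by several-fold between libraries of one group, and they did so together. The mean of log2(FPKM + 1) over the 32 genes, called their level below, was 4.32, 4.22 and 5.39 in Control 1, 2 and 3. It was 4.89, 4.99 and 5.33 in D15L100, 4.92, 4.61 and 4.42 in D15L150, and 4.41, 4.83 and 5.22 in D15L200. In D100L150 it was 4.59, 4.71 and 5.07, and in D150L150 it was 5.52, 5.02 and 4.09. Both the highest and the lowest level of the series thus lay in D150L150, and the second highest lay in Control. The group means of this level were 4.64 ± 0.65 in Control, 5.07 ± 0.23 in D15L100, 4.65 ± 0.25 in D15L150, 4.82 ± 0.41 in D15L200, 4.79 ± 0.25 in D100L150 and 4.88 ± 0.72 in D150L150 (SD, n = 3 each). These means lie closer together than the libraries within Control or within D150L150.

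**Figure D1:**
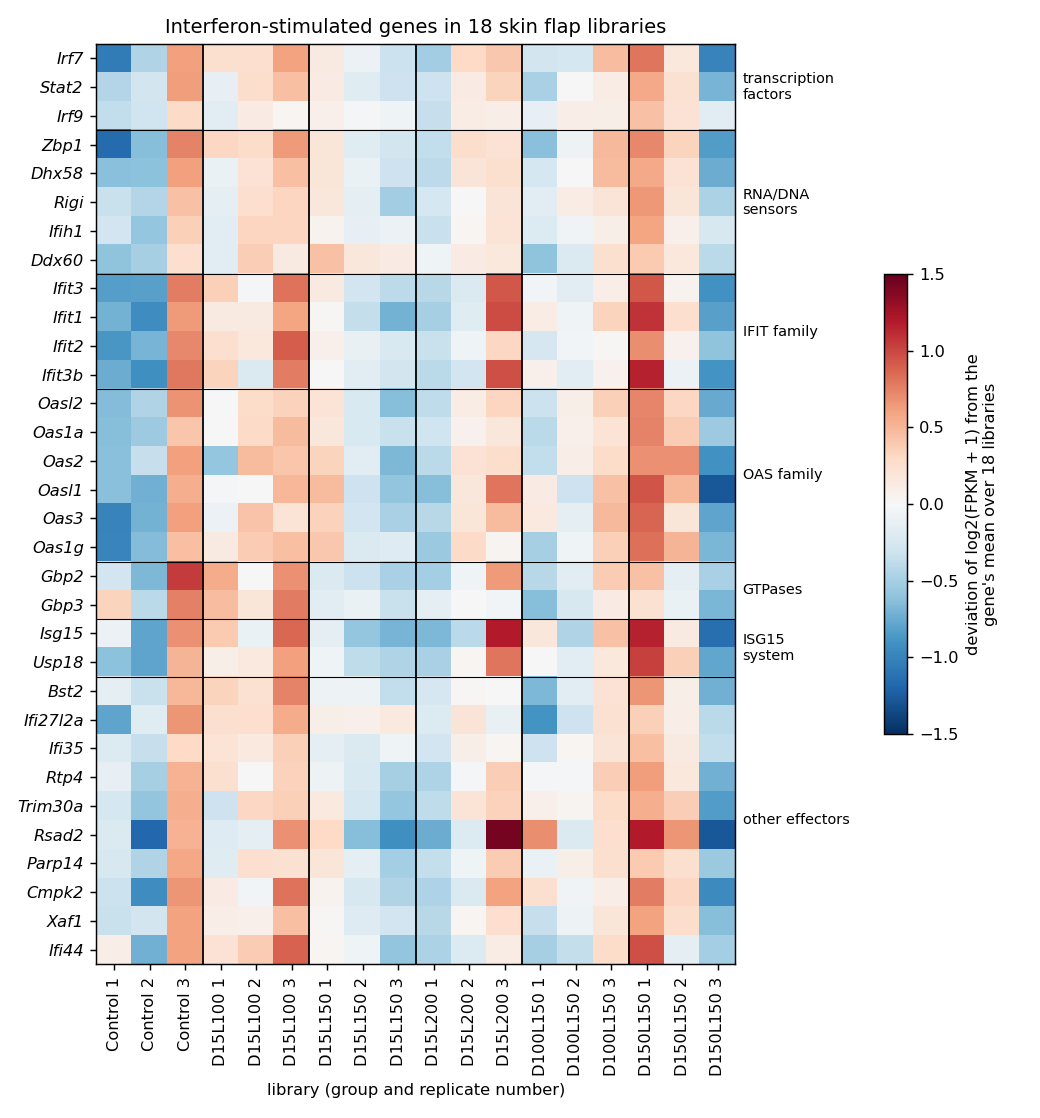
Each row is 1 of the 32 genes and each column 1 of the 18 libraries; colour gives the deviation of log2(FPKM + 1) from the gene's mean over all libraries, red above and blue below. Whole columns share a colour: Control 3 and D150L150 1 are red and D150L150 3 is blue over nearly all rows. D15L100 is the only group whose 3 libraries all have a mean deviation above 0 (0.079, 0.178 and 0.525).

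Within Control, all 32 genes were highest in Control 3, where 31.9% of all 13078 genes tested had their highest Control value. Within D150L150, all 32 were highest in the first library and lowest in the third, where 23.1% and 37.4% of all genes had their highest and lowest values. Within D15L200, all 32 were lowest in the first library, against 39.0% of all genes. In the other groups the genes were less uniform. In D15L100, 26 of the 32 were highest in the third library, the others being Irf9, Oas2, Oas3, Ifih1, Parp14 and Ddx60. In D15L150, 29 were highest in the first library, all but Ifi27l2a, Gbp3 and Ifi35. In D15L200, 25 were highest in the third library, and in D100L150, 28 were highest in the third. The shares of all genes highest in these 4 libraries were 31.2% in D15L100 3, 37.4% in D15L150 1, 45.0% in D15L200 3 and 26.2% in D100L150 3. The labels do not say what the replicate numbers stand for, and these counts are descriptions.

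The largest value of a gene within Control was a median of 2.53 times its smallest, from 1.58 (Ifi35) to 3.87 times (Zbp1), where the median over all genes tested was 1.41. Within D150L150 this ratio had a median of 2.69 over the 32 genes, from 1.54 (Irf9) to 6.03 (Rsad2), beside 1.32 for all genes. In D15L100 and D15L150 the medians were 1.46 and 1.40, beside 1.34 and 1.32 for all genes. The pooled coefficient of variation within groups had a median of 36.3% over the 32 genes, from 17.0% (Irf9) to 58.0% (Rsad2), against a median of 17.9% over all genes tested. Counting error was far smaller, at most 5.66% for any of the 32 genes in any library, since the lowest count was 312 fragments (Ifi44). A median of 15.1% of the variance of log2(FPKM + 1) of the 32 genes lay between groups, from 5.04% (Oas2) to 43.8% (Gbp3), where the median over all genes tested was 35.1%. This share is an uncorrected ratio of sums of squares for 6 groups of 18 libraries. It lies above 0 even where groups do not differ, so it does not measure an effect of the group.

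**Figure D2:**
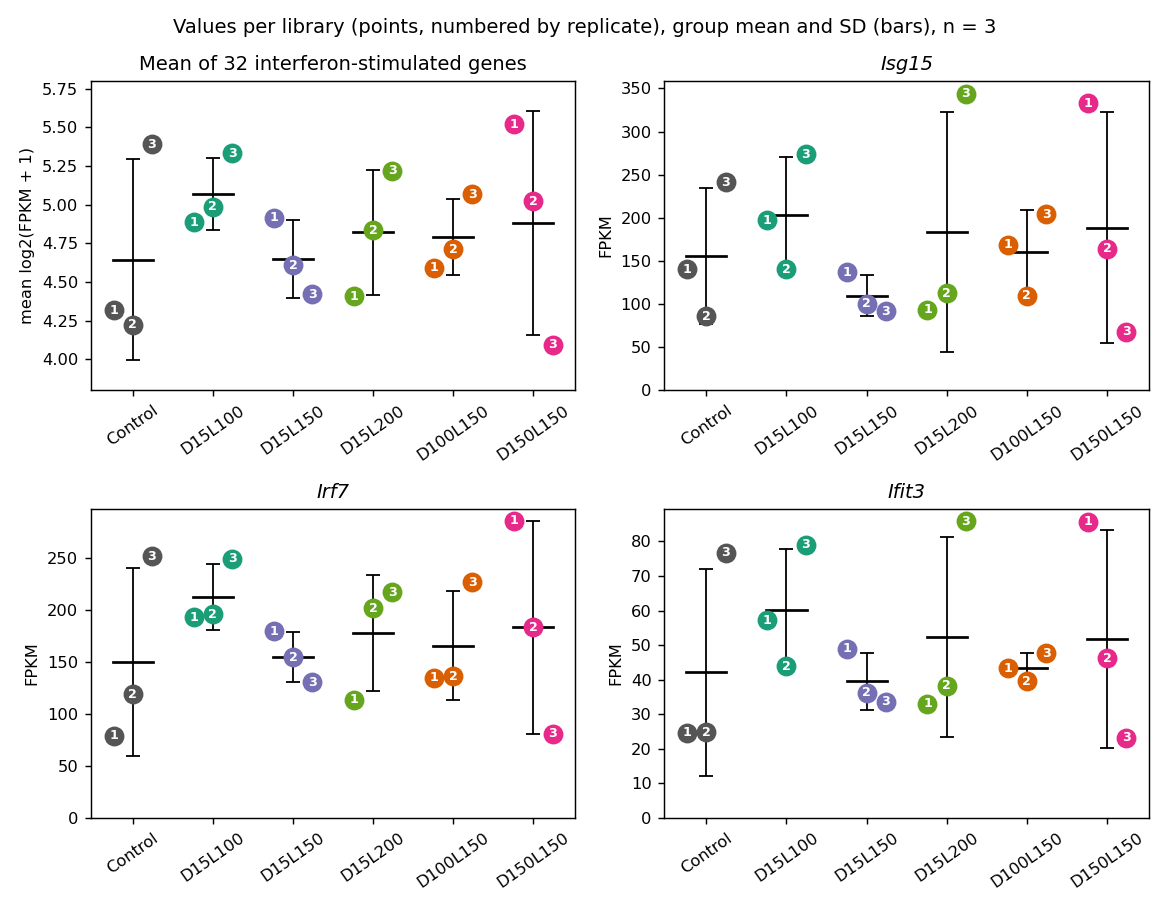
Points are the 18 libraries, numbered by replicate, with the group mean (bar) and SD (whiskers, n = 3), for the mean log2(FPKM + 1) of the 32 genes (this axis does not start at 0) and for the FPKM of Isg15, Irf7 and Ifit3. Control 3 lies among the highest points of every panel and D150L150 spans nearly the whole range.

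Among the transcription factors, Irf7, the interferon regulatory factor that amplifies interferon production, was by far the most abundant. Irf7 lay at 78.8, 119 and 251 FPKM in Control, 193, 196 and 249 in D15L100, 179, 154 and 130.4 in D15L150, 113, 201 and 217 in D15L200, 134, 136 and 226 in D100L150, and 286, 183 and 80.9 in D150L150. Control 1 was the lowest of the 18 libraries and Control 3 the second highest, so every spacer group overlapped Control. For Irf7, the mean of the 5 spacer groups minus Control was 0.35 ± 0.35 (SE), with an interval from -0.39 to 1.10 and an adjusted p of 0.576, and 0.81 ± 0.36 without Control 3 (limma, Benjamini-Hochberg adjustment over 13078 genes, as for all adjusted p below; differences are of log2(FPKM + 1), and intervals are 95%). Irf9 and Stat2 code for parts of the complex that binds the response element. Irf9 had the smallest spread within groups of all 32 genes, at 22.6 to 40.6 FPKM, and its difference from Control was 0.15 ± 0.15 (SE), with an interval from -0.16 to 0.46 and an adjusted p of 0.563, and 0.36 ± 0.14 without Control 3. As a ratio of FPKM + 1, the interval with all libraries reaches from 0.896 to 1.38 for Irf9, the narrowest of the 32 genes. Stat2 lay at 19.5 to 50.7 FPKM, with a difference of 0.03 ± 0.26 (SE), with an interval from -0.51 to 0.58 and an adjusted p of 0.952, and 0.37 ± 0.27 without Control 3.

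Zbp1, a sensor of Z-form nucleic acid that can trigger cell death, was the most abundant of the sensors. Zbp1 lay at 19.1, 27.8 and 74.04 FPKM in Control, 54.7, 53.5 and 69.1 in D15L100, 49.8, 38.5 and 35.97 in D15L150, 33.7, 52.8 and 51.3 in D15L200, 28.1, 41.6 and 62.04 in D100L150, and 73.1, 55.4 and 24.2 in D150L150. The first and second Control libraries were among the lowest of the series, and the third was its highest. The difference of the spacer mean from Control for Zbp1 was 0.42 ± 0.35 (SE), with an interval from -0.33 to 1.18 and an adjusted p of 0.504, and 0.97 ± 0.34 without Control 3. Ddx60, a helicase that aids RNA sensing, had the smallest unadjusted p of the 32 genes in this comparison. Ddx60 lay at 2.44, 2.70 and 5.26 FPKM in Control, 3.68, 5.75 and 4.78 in D15L100, 6.11, 4.89 and 4.73 in D15L150, 4.01, 4.71 and 4.85 in D15L200, 2.44, 3.52 and 5.20 in D100L150, and 5.89, 4.83 and 2.98 in D150L150. Its values in D15L100, D15L150, D15L200 and D150L150 all lay above 2 of the 3 Control values. It exceeded the third Control value only in D15L100 2, D15L150 1 and D150L150 1. Its difference was 0.34 ± 0.20 (SE), with an interval from -0.09 to 0.77 and an adjusted p of 0.331, and 0.61 ± 0.21 without Control 3. The cytosolic RNA helicases Rigi and Ifih1 lay at 11.4 to 26.97 and 6.83 to 16.6 FPKM, both highest in D150L150 1. Dhx58, their regulator, lay at 12.8 to 34.6 FPKM and was highest in Control 3.

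IFIT proteins bind foreign RNA and hinder its translation. Their genes lie side by side on chromosome 19, from Ifit2 at chr19:34550550-34576534 to Ifit1 at chr19:34640889-34650009 (GRCm38.p6, RefSeq). Ifit3, the most abundant, lay at 24.7, 24.8 and 76.7 FPKM in Control, 57.2, 43.9 and 79.1 in D15L100, 48.99, 36.2 and 33.5 in D15L150, 32.96, 38.3 and 85.8 in D15L200, 43.3, 39.5 and 47.7 in D100L150, and 85.7, 46.2 and 23.2 in D150L150. The 4 highest libraries came from 4 groups, D15L200, D150L150, D15L100 and Control, and each was the highest of its group. The difference of the spacer mean from Control for Ifit3 was 0.35 ± 0.38 (SE), with an interval from -0.47 to 1.16 and an adjusted p of 0.616, and 0.88 ± 0.38 without Control 3. Ifit2 lay at 12.3, 14.1 and 39.1 FPKM in Control, 28.1, 26.2 and 44.9 in D15L100, 24.8, 21.6 and 19.7 in D15L150, 18.4, 22.2 and 29.3 in D15L200, 19.5, 22.7 and 23.7 in D100L150, and 38.5, 24.4 and 14.98 in D150L150. It gave the smallest p of the 32 genes for D15L100 against Control, a difference of 0.73 ± 0.38 (SE) with an interval from -0.09 to 1.54 and an adjusted p of 0.9998. For the spacer mean, the difference of Ifit2 was 0.34 ± 0.30 (SE), with an interval from -0.29 to 0.97 and an adjusted p of 0.520, and 0.84 ± 0.26 without Control 3. Ifit1 lay at 15.8 to 66.5 FPKM and Ifit3b at 6.38 to 30.2 FPKM, and Ifit3b was below Ifit3 in every library. Ifit3 and Ifit3b are near copies, and the sources used here do not say how fragments that match both were counted, so their separate values are uncertain.

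Those OAS proteins that are active enzymes make the second messenger that activates RNase L. The genes Oas1a, Oas1g, Oas2 and Oas3 share a cluster on chromosome 5, from Oas2 at chr5:120730333-120749886 to Oas1a at chr5:120896256-120907544, and Oasl1 and Oasl2 lie together at chr5:114923143-114937911 and chr5:114896926-114912245. Oasl2, the most abundant of the 6, lay at 37.8, 43.7 and 96.2 FPKM in Control, 59.8, 72.99 and 76.6 in D15L100, 69.4, 51.1 and 38.3 in D15L150, 45.8, 65.02 and 75.5 in D15L200, 47.6, 64.1 and 77.2 in D100L150, and 100.5, 74.95 and 35.2 in D150L150. D150L150 held both the highest and the lowest value. The difference of the spacer mean from Control for Oasl2 was 0.17 ± 0.30 (SE), with an interval from -0.47 to 0.82 and an adjusted p of 0.767, and 0.58 ± 0.31 without Control 3. Oas1g had the largest difference of all 32 genes in that comparison. Oas1g lay at 5.15, 6.76 and 15.7 FPKM in Control, 12.4, 14.8 and 15.6 in D15L100, 15.2, 9.52 and 9.69 in D15L150, 7.27, 13.9 and 11.6 in D15L200, 7.64, 10.7 and 14.6 in D100L150, and 20.6, 16.3 and 6.57 in D150L150. Control 1 and Control 2 were lower than the D15L100 values, but Control 3 was higher than all of them. The difference was 0.47 ± 0.32 (SE), with an interval from -0.20 to 1.15 and an adjusted p of 0.396, and 0.90 ± 0.33 without Control 3. As a ratio of FPKM + 1, the interval with all libraries reaches from 0.869 to 2.22. Oas3 lay at 5.15, 6.53 and 17.95 FPKM in Control, 10.6, 15.5 and 13.2 in D15L100, 14.6, 9.08 and 7.81 in D15L150, 8.25, 13.01 and 16.2 in D15L200, 12.6, 10.1 and 16.3 in D100L150, and 21.5, 13.04 and 6.15 in D150L150. Its difference was 0.44 ± 0.34 (SE), with an interval from -0.29 to 1.17 and an adjusted p of 0.469, and 0.93 ± 0.34 without Control 3. Oas1a lay at 20.2, 21.7 and 43.00 FPKM in Control, 32.1, 39.3 and 44.97 in D15L100, 36.3, 27.2 and 25.2 in D15L150, 25.8, 33.5 and 36.2 in D15L200, 24.1, 33.8 and 37.2 in D100L150, and 54.4, 42.1 and 21.6 in D150L150, a range from Control 1 to D150L150 1. The difference of Oas1a was 0.31 ± 0.25 (SE), with an interval from -0.23 to 0.85 and an adjusted p of 0.498, and 0.64 ± 0.26 without Control 3. Oas1a and Oas1g are also near copies, and their split of shared fragments is uncertain in the same way. Oas2 lay at 12.2 to 38.8 FPKM and Oasl1 at 8.95 to 45.5 FPKM, and both were highest in D150L150 1 and lowest in D150L150 3.

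The guanylate-binding proteins attack vacuoles that hold pathogens and respond strongly to interferon gamma. Gbp2 lay at 24.9, 18.8 and 64.2 FPKM in Control, 45.4, 30.5 and 49.9 in D15L100, 26.3, 24.4 and 21.6 in D15L150, 21.3, 29.3 and 48.02 in D15L200, 22.7, 27.4 and 40.1 in D100L150, and 41.9, 27.7 and 21.6 in D150L150. Its highest value of the series was Control 3 and its lowest was Control 2. Gbp3 lay at 22.5, 13.1 and 30.4 FPKM in Control, 24.7, 20.2 and 31.05 in D15L100, 15.7, 16.4 and 13.7 in D15L150, 15.8, 17.5 and 17.1 in D15L200, 10.9, 14.8 and 19.2 in D100L150, and 20.9, 16.4 and 10.6 in D150L150. The 4 highest Gbp3 values lay in D15L100 and Control, but Control 2 lay among the lower libraries. Gbp3 was 1 of the 3 genes with a spacer mean below Control, with a difference of -0.27 ± 0.22 (SE), with an interval from -0.74 to 0.20 and an adjusted p of 0.488, and -0.01 ± 0.24 without Control 3. Gbp2 and Bst2 were the others, at -0.03 ± 0.31 and -0.01 ± 0.24 (SE), and at 0.47 ± 0.28 and 0.23 ± 0.27 without Control 3. Both signs also turned when libraries were rescaled to equal sums over all genes. Gbp3 in D15L150 minus D15L100 gave the one unadjusted p under 0.05 among the 32 genes in any comparison, a difference of -0.68 ± 0.28 (SE) with an adjusted p of 0.885. The 3 D15L100 values lay above all 3 D15L150 values. This was not particular to Gbp3, since Ifit2, Isg15, Irf7, Zbp1, Usp18 and Bst2, among others, did the same. Others of the 32, such as Ifit3 and Oasl2, overlapped. The share of all genes without overlap in this pair was not counted.

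ISG15 is a ubiquitin-like protein that is attached to other proteins, and USP18 removes it. Isg15 lay at 140.2, 85.7 and 241 FPKM in Control, 197, 139.97 and 274 in D15L100, 137, 100.1 and 91.6 in D15L150, 93.3, 113 and 344 in D15L200, 169, 109 and 204 in D100L150, and 333, 164 and 67.9 in D150L150. Every other group held a library above the highest D15L150 value. The difference of the spacer mean from Control for Isg15 was 0.08 ± 0.44 (SE), with an interval from -0.87 to 1.03 and an adjusted p of 0.934, and 0.46 ± 0.51 without Control 3. With all libraries, that interval as a ratio of FPKM + 1 reaches from 0.548 to 2.04, so it holds both sizeable decreases and increases. Usp18 lay at 17.3, 15.3 and 39.1 FPKM in Control, 28.8, 30.2 and 41.9 in D15L100, 25.8, 20.5 and 19.5 in D15L150, 19.00, 27.6 and 48.1 in D15L200, 26.99, 24.2 and 30.3 in D100L150, and 56.3, 34.9 and 15.3 in D150L150. Its difference was 0.35 ± 0.33 (SE), with an interval from -0.36 to 1.07 and an adjusted p of 0.554, and 0.76 ± 0.36 without Control 3. Its pattern was close to that of Ifit1, with a correlation of 0.983 over the 18 libraries.

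Among the other effectors, Bst2, which tethers budding virions to the cell surface, was the most abundant gene of all 32. Bst2 lay at 180.04, 156 and 279.6 FPKM in Control, 249, 231 and 330.2 in D15L100, 186, 186 and 153 in D15L150, 165, 199.7 and 198 in D15L200, 124, 177 and 229 in D100L150, and 312, 209 and 119 in D150L150. D15L100 had the highest mean (269.9 ± 53.0 FPKM, SD, n = 3) and D15L150 the lowest (175.2 ± 19.5), and both overlapped Control (205.2 ± 65.5). Rsad2, which makes a chain-terminating nucleotide, varied most between libraries, by 7.17-fold. Rsad2 lay at 18.96, 9.29 and 32.4 FPKM in Control, 19.3, 20.04 and 36.4 in D15L100, 27.5, 13.8 and 11.2 in D15L150, 12.8, 19.1 and 61.6 in D15L200, 36.5, 18.9 and 26.6 in D100L150, and 51.8, 35.6 and 8.59 in D150L150. Its peaks were D15L200 3 and D150L150 1, and its difference of the spacer mean from Control was 0.35 ± 0.51 (SE), with an interval from -0.75 to 1.44 and an adjusted p of 0.720, and 0.75 ± 0.60 without Control 3. Its neighbour Cmpk2, which makes the nucleotide that Rsad2 uses, lies next to it on chromosome 12 (chr12:26442743-26456452 and chr12:26469117-26479837). Cmpk2 was at 5.88 to 22.5 FPKM and correlated with Rsad2 at 0.929. Ifi27l2a, a small mitochondrial membrane protein gene, lay at 99.95 to 297 FPKM and followed the other genes less closely. The remaining 6 lay at 3.34 to 13.05 FPKM (Ifi44), 4.97 to 13.2 (Xaf1), 19.4 to 50.8 (Rtp4), 10.7 to 24.8 (Parp14), 28.6 to 51.1 (Ifi35) and 15.05 to 41.1 (Trim30a).

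The comparison with Control asked whether a spacer under the flap was accompanied by another level of these genes. In the mean of the 5 spacer groups, 0 of 32 genes were called higher or lower (limma, adjusted p under 0.05), where 3.56% of all 13078 genes tested were called. None of the 32 had an unadjusted p under 0.05, against 2926 of all genes. Voom on the recovered fragments also called 0 of the 32, beside 285 of all genes. By class, the median difference was 0.35 for the IFIT genes, 0.31 for the OAS genes, 0.25 for the sensors, 0.22 for the ISG15 system, 0.15 for the transcription factors, 0.08 for the other effectors and -0.15 for the GTPases. Over all 32 the differences ran from -0.27 (Gbp3) to 0.47 (Oas1g) with a median of 0.19, and 29 of 32 were above 0, beside a median of -0.04 over all genes. Since the 32 genes vary together, these signs are not 32 separate observations. Without Control 3, the median difference was 0.54 and 13 of the 32 genes had an unadjusted p under 0.05, against 3093 of all genes. None of the 32 was called, where 302 of all genes were, and the smallest adjusted p was 0.0885 (Ifit2). Without Control 2 the median was 0.02. Without Control 1, 0 of all 13078 genes were called in this comparison, so the share of 3.56% depended on that library. A count of 0 of 32 is also not far from that share.

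Each spacer group was also set against the same 3 Control libraries, so that the 5 comparisons are not independent. In D15L100, all 32 genes lay above Control, by a median of 0.41 (0.12 for Irf9 to 0.76 for Zbp1), and 0 were called, as were 0 of all genes (percent called 0). This was the highest median of the 5. It was 0.81 without Control 3, when 16 of the 32 had an unadjusted p under 0.05, against 708 of all 13078 genes. Without Control 2 it was 0.19. In D15L150 the median was -0.02 with 14 of 32 above 0, and 0 were called, as were 0 of all genes. With libraries rescaled to equal sums over all genes, that median was 0.08 with 22 above 0. In D15L200 the median was 0.16 with 26 above 0, and 0 were called, where 1.56% of all genes were. In D100L150 the median was 0.17 with 25 above 0, and 0 were called, where 1.38% of all genes were. In D150L150 the median was 0.25 with 29 above 0, and 0 were called, where 2.42% of all genes were. Single libraries moved these medians across a wide range. Without Control 3, the median was 0.35 in D15L150, 0.54 in D15L200 and 0.53 in D100L150, and without D150L150 3 it was 0.63 in D150L150. It was -0.20 in D15L150 and -0.01 in D100L150 without Control 2, -0.02 in D15L200 without Control 1, and -0.07 in D150L150 without D150L150 1. Without Control 1, limma called 0 of all genes in D15L200 and D100L150 and 2 in D150L150. With all libraries, no gene of the 32 had an unadjusted p under 0.05 in any of these 5 comparisons, and voom called none. Over all genes, voom called 0 in D15L100 and D15L150, 10 in D15L200, 90 in D100L150 and 183 in D150L150. The medians over all genes ran from -0.06 to 0.00. The highest group mean lay in D15L100 for 19 of the 32 genes, in D150L150 for 12 and in D15L150 for Ddx60, and the lowest lay in D15L150 for 19, in Control for 11 and in D100L150 for Gbp3 and Ifi27l2a.

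**Figure D3:**
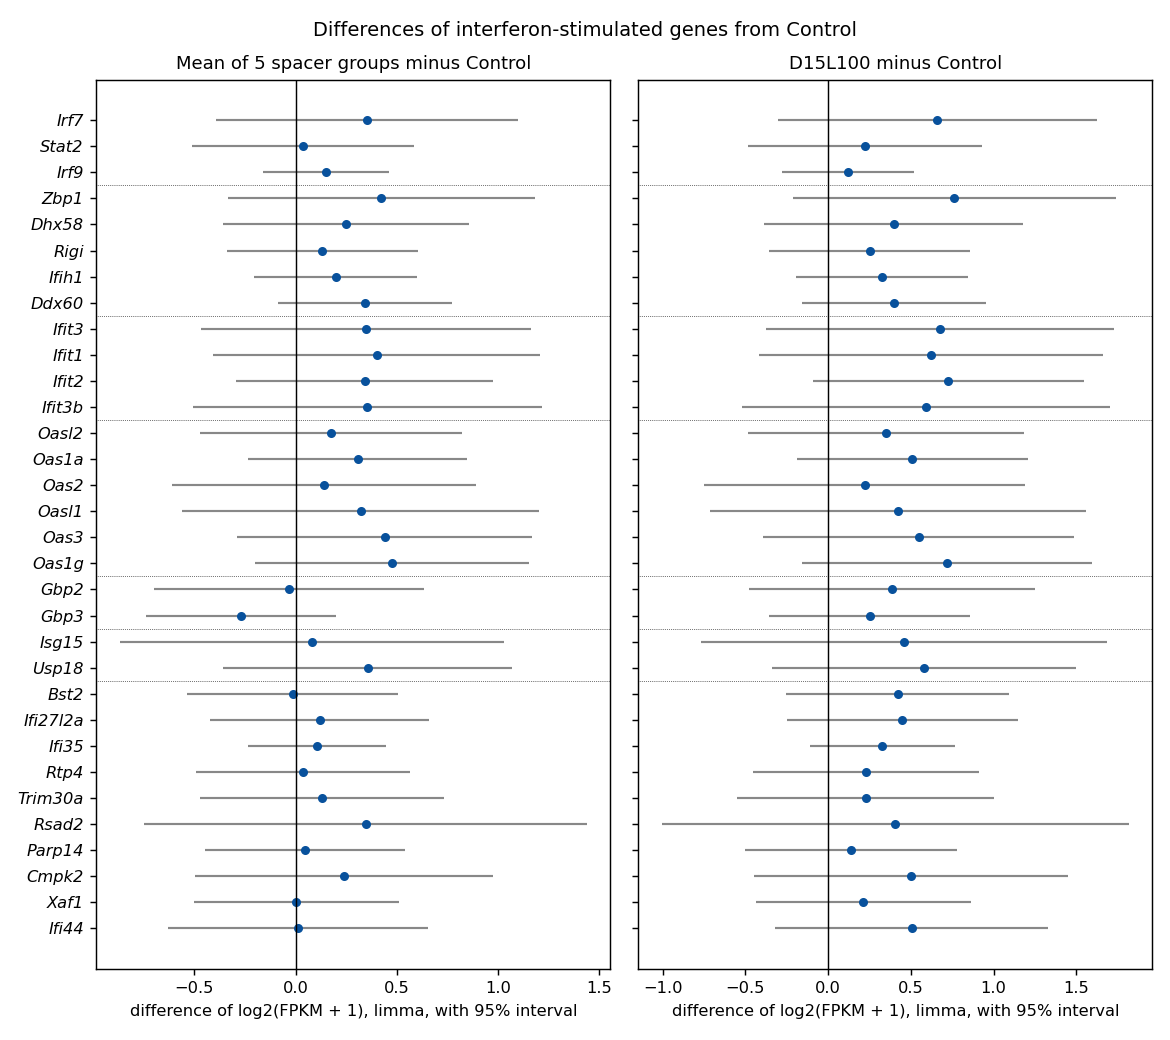
Points are differences of log2(FPKM + 1) from Control for the 32 genes, with 95% intervals from the limma fit (bars), for the mean of the 5 spacer groups (left) and for D15L100 (right); dotted lines part the gene classes. Every interval of both panels includes 0, while 29 points on the left and all 32 on the right lie above it.

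The spacer groups were compared with each other along each label number. Among D15L100, D15L150 and D15L200, an F test called 0 of the 32 genes, and 0 of all genes were called. In pairs, the 32 genes had a median difference of -0.40 in D15L150 minus D15L100, with 31 below 0. The median was -0.22 in D15L200 minus D15L100, again with 31 below 0, and 0.15 in D15L200 minus D15L150, with 28 above 0. None of the 32 was called in these 3 pairs, nor was any other gene. The 1 gene of the 32 above 0 was Ddx60 in the first pair and Rsad2 in the second, neither of them called. These pairs share the D15L100 libraries. Without D15L200 3 the medians of the second and last pair were -0.42 and -0.02, and without D15L200 1 they were -0.02 and 0.34. Gbp3 in the first pair, given above, was the one unadjusted p under 0.05, and voom called 0 of the 32 in each. Among D15L150, D100L150 and D150L150, an F test again called 0 of the 32 and 0 of all genes. The medians were 0.15 in D100L150 minus D15L150, 0.21 in D150L150 minus D15L150 and 0.07 in D150L150 minus D100L150, with 0 of the 32 and 0 of all genes called in each pair, and none of the 32 had an unadjusted p under 0.05. Leaving out D100L150 3 brought the first of these to 0.01. Leaving out D150L150 1 turned the last 2 medians to -0.06 and -0.20, and leaving out D150L150 3 gave 0.62 and 0.51. An F test over all 6 groups called 0 of the 32 genes, where 0.0765% of all genes were called. Its smallest adjusted p among the 32 was 0.487, for Gbp3.

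The 32 genes varied together across libraries. Over the 18 libraries, the 496 pairs among the 32 genes all had a positive correlation of log2(FPKM + 1), with a median of 0.828, and 483 exceeded 0.5. The mean over pairs was 0.801, and 0.845 for deviations from group means, against 0.020 and 0.018 over all genes tested. The closest pairs were Ifit3 with Ifit3b (0.984), Ifit1 with Usp18 (0.983), Oasl2 with Rigi (0.970) and Irf7 with Zbp1 (0.965). The least alike were Rsad2 with Ifi27l2a (0.246), Irf9 with Gbp3 (0.329) and Isg15 with Ddx60 (0.408). Gbp3, Ifi27l2a and Ddx60 had the lowest mean correlation with the others, at 0.607, 0.642 and 0.655. These values describe 18 libraries that share preparation and scaling, and are given without a test.

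Outside the list, 29 genes had a correlation over 0.9 with the mean standardized value of the 32 genes over the 18 libraries. The 10 highest were Ifi213 (0.968), Dtx3l (0.961), Ifi47 (0.953), Ifi209 (0.952), Sp100 (0.950), Ifi211 (0.950), Herc6 (0.940), Parp12 (0.938), Ifi204 (0.936) and Daxx (0.934). Ifi204, Ifi209, Ifi211 and Ifi213 belong to the interferon-inducible p200 family of DNA-binding proteins, and Dtx3l, Parp12 and Herc6 code for enzymes of protein modification. Among the first 30, 16 belonged to a list of other interferon-induced genes set up for comparison.

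The promoters of these genes were searched for the response element, as a description of the list. RefSeq promoters (GRCm38.p6, 250 bases before to 50 after an annotated start) matched 25 of the 32 genes, with 29 promoters. The first motif searched was GAAANNGAA and the second ANNGAAACT, each on both strands, where N is any base. The second starts 3 bases after the first where both describe one element, so that they overlap. The first motif occurred in 17 of 25 genes (68%, exact 95% binomial interval 46.5% to 85.1%), against 8.72% of the 10400 other tested genes with a promoter and 9.76% of all 27025 genes. The second occurred in 18 of 25 (72%), against 4.98% and 5.65%. Both in frame, a match of 12 letters, occurred in 11 of 25 (44%, 24.4% to 65.1%), against 0.356% and 0.303%. A match describes letters and not a site bound in these flaps. The genes were listed as interferon-stimulated, so these shares describe the list and not why its genes vary together here. The intervals count near copies such as Ifit3 and Ifit3b as separate genes. The 11 were Bst2, Ddx60, Gbp2, Gbp3, Ifit1, Ifit3, Ifit3b, Oas1a, Oas1g, Rigi and Trim30a.

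Stretches from 10 of these promoters are shown because they hold one or both motifs in genes described above, 5′ to 3′ along the gene, all before the annotated start. Capitals mark every base of either motif on either strand.
Isg15, chr4:156200856-156200968, minus strand: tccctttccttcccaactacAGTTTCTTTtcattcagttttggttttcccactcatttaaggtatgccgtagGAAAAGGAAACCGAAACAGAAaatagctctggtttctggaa
Ifit1, chr19:34640760-34640833, plus strand: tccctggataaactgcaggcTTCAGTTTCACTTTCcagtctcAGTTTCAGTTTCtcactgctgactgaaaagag
Ifit3, chr19:34583351-34583455, plus strand: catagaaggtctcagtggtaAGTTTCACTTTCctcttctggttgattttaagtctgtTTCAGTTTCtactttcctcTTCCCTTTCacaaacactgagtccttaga
Ifit3b, chr19:34607747-34607851, plus strand: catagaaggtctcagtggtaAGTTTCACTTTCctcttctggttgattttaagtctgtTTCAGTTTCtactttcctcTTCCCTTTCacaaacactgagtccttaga
Bst2, chr8:71537568-71537651, minus strand: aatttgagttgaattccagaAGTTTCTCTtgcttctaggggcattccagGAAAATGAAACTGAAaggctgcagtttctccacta
Oas3, chr5:120777700-120777754, minus strand: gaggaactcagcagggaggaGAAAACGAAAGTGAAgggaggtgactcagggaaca
Rsad2, chr12:26456529-26456591, minus strand: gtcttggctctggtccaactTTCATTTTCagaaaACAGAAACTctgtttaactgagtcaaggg
Stat2, chr10:128270257-128270308, plus strand: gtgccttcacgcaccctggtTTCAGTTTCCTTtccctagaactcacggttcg
Rigi, chr4:40239855-40239903, minus strand: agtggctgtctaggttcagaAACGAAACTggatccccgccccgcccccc
Trim30a, chr7:104465200-104465251, minus strand: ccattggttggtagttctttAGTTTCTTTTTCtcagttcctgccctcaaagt
Isg15 had 3 overlapping copies of the first motif in tandem and Ifit1 had 3 on the opposite strand. The stretches of Ifit3 and Ifit3b had the same 105 letters. Isg15, Oas3, Rsad2 and Stat2 held both motifs but not in frame, and the second motif of Oas3 lay after its start. The in-frame match of Rigi also lay after the start, and the stretch shown holds only the second motif. The first motif was not found in the windows of Cmpk2, Ifi35, Ifit2, Irf7, Irf9, Oasl1, Oasl2 and Xaf1, of which Oasl1 and Xaf1 held the second motif.

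**Figure D4:**
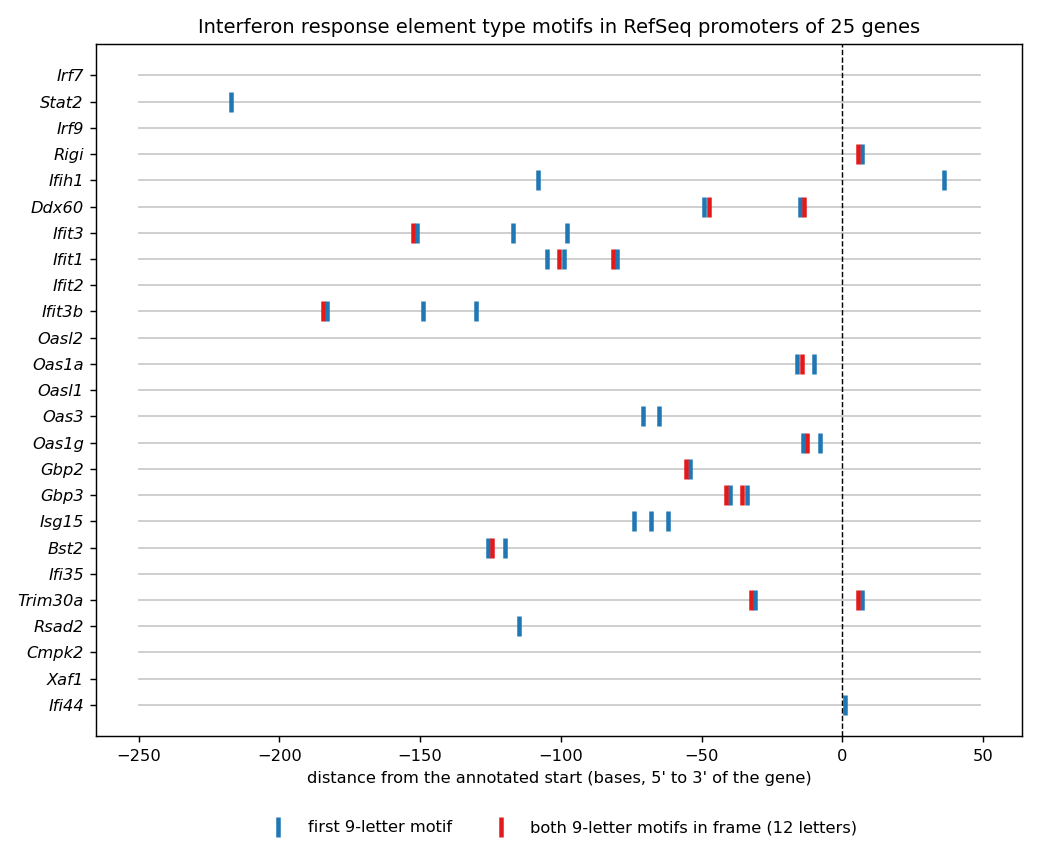
Each line is the promoter window of 1 of the 25 genes, in bases from the annotated start (dashed); for a gene with several promoters all matches are drawn on 1 line. Blue marks are matches of the first motif and red marks are matches of both motifs in frame (44% of the genes), and most lie within 200 bases before the start.

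Ligand RNA was scarce. Of 21 interferon genes listed, 8 were in the table and none passed the filter. Ifnb1 reached 0.522 FPKM in D15L200 3, from 15 fragments, and had 44 fragments over all 18 libraries. Ifna2, Ifna4 and Ifnab had 2, 2 and 3 fragments in all, Ifnk 8, Ifne 14 and Ifnz 21. Ifng, made by T and NK cells, lay at 0.025 to 0.555 FPKM with 150 fragments in all, highest in D150L150 1 (21 fragments) and Control 3 (16 fragments). These 2 libraries also had the highest level of the 32 genes, but D150L150 2, with a level of 5.02, had 1 Ifng fragment. Ligands were not tested between groups, since none passed the filter.

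The receptor chains were present throughout, Ifnar1 at 12.1 to 21.3 FPKM, Ifnar2 at 8.77 to 16.4 FPKM, Ifngr1 at 56.3 to 95.5 FPKM and Ifngr2 at 29.6 to 47.6 FPKM. Of 19 receptors, kinases and transducers, none was called in any comparison with Control by limma or voom, and 1 had an unadjusted p under 0.05 for the spacer mean. This was Pias1, at 0.20 ± 0.08 (SE) for the spacer mean, with an adjusted p of 0.144. Of 14 genes of sensing and its adapters, none was called either, and 1, Tlr7, had an unadjusted p under 0.05. Tlr7 and Sting1 had the smallest p, at 0.42 ± 0.17 and -0.37 ± 0.18 (SE), with adjusted p of 0.170 and 0.243.

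A further list of 50 interferon-induced genes had 45 that passed the filter, and none of these was called in any of the 6 comparisons with Control by limma or voom. In the spacer mean, 38 of 45 lay above 0, with a median of 0.13, and none had an unadjusted p under 0.05. The smallest p was that of Ifi205, at 0.72 ± 0.34 (SE) with an adjusted p of 0.230. Without Control 3, Ifi205 alone of the 45 was called, at 1.31 ± 0.29 (SE) with an adjusted p of 0.0350 (limma). In that fit 302 of all 13078 genes were called, so 1 of 45 is close to the share over all genes. Leaving out Control 3 had raised the Ifi205 difference from 0.72. The 45 genes followed the same libraries: 41 of 45 were highest in Control 3 within Control, 44 were highest in D150L150 1 and all 45 were lowest in D150L150 3. Of 27 genes typical of interferon gamma, such as antigen-presentation genes and GTPases, none was called by limma or voom, and the median for the spacer mean was 0.08 with 3 unadjusted p under 0.05. These were Gbp4, H2-D1 and H2-K1, at -0.60 ± 0.25, 0.35 ± 0.16 and 0.39 ± 0.18 (SE), with adjusted p of 0.174, 0.203 and 0.204.

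Markers of cell types that a flap can hold were read in the same libraries, and in bulk RNA more cells of a type and more RNA per cell cannot be told apart. The summed FPKM of the 4 monocyte markers (Ly6c2, Ccr2, Plac8 and Chil3, all detected) was 155, 106 and 293 in Control, 161, 221 and 324 in D15L100, and 172, 157 and 175 in D15L150. It was 110.3, 223 and 279 in D15L200, 175, 208 and 229 in D100L150, and 434, 203 and 138 in D150L150. In 5 of 6 groups, all but D15L150, its highest library was also the library with the highest level of the 32 genes. The 4 markers did not move alike. Ly6c2, which made up most of the highest sum at 271 FPKM in D150L150 1, and Plac8 each matched in 5 groups, and Ccr2 and Chil3 each in 3. Plac8 was among the genes most like the 32, with a correlation of 0.929 with their mean standardized value. With 3 libraries a group, some matches come about without any link. Chil3 was at its lowest of the series in Control 3, at 4.72 FPKM. The corresponding count of groups was 4 for 6 endothelial markers, 3 for 6 neutrophil and 5 fibroblast markers, 1 for 8 macrophage markers and 0 for 6 keratinocyte markers. The 5 plasmacytoid dendritic cell markers summed to 2.57 to 6.74 FPKM, with Ccr9 and Spib below 1 FPKM in every library, and matched in 2 groups. Only 1 of these 5, Tcf4, passed the filter on low values, so this sum is a weak measure of these cells. The part of any of these cell types in the levels of the interferon-stimulated genes was not tested.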

How the data were processed

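Total RNA of 18 mouse skin flap libraries had been sequenced, 3 in each of 6 groups taken from the sample titles. Per the submitters' processing notes, fastp, HISAT2, HTSeq, R 3.2.0 and DESeq2 were used with the mouse build mm10; other versions, the annotation and the strand setting are not given in the sources. The deposited values are FPKM per gene. Fragments recovered from the FPKM steps were whole for all 27743 genes, within a relative tolerance of 1e-09. Depth was 28422344 to 35327357 fragments, and libraries of a group differed beyond counting noise (chi-square per gene 44.61 to 259).

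Genes at 1 FPKM or more in 3 or more libraries were fitted as log2(FPKM + 1) in limma 3.58.1 under R 4.3.3. The fit had a mean for each group, moderated with a trend and robustly, and adjusted over all 13078 genes by Benjamini-Hochberg. Calls were made at an adjusted p under 0.05. Replicate numbers did not pair the libraries. Every gene is named; values in every library are given for the 8 genes of smallest p over the spacer mean and the 6-group F test, and for the most abundant of each class. Of the other lists, up to the 4 genes of smallest p and all ligands are named. Rsad2 was singled out after its values were seen. The genes and lists were chosen with earlier results of these data known. Promoters came from RefSeq (GRCm38.p6) and were searched with Python 3.11.15. Alternatives covered pseudocount, filter, scaling, replicate block, voom, moderation, the groups in the fit and each library left out.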

Additional observations from a re-analysis of the deposited data

How the results depend on the processing

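In 418 recounts, made for 12 differences and 3 F tests with each alternative or library left out, 0 of the 32 genes were called each time, and the smallest adjusted p was 0.0885. With the replicate block, which the numbers do not warrant (median correlation of same-numbered deviations 0.02, and 1 of 18 libraries was most like one of its own number), 0 of the 32 genes were called, while the count over all genes for the spacer mean went from 466 to 256. That count was 285 by voom and 227 without a filter. With 1 library left out it was 0 to 597, and it was 0 without Control 1. For the spacer mean, Bst2 and Gbp2 turned to 0.031 and 0.0132 with libraries rescaled to equal sums. With 1 library left out, Bst2 ranged from -0.19 to 0.23, Gbp2 from -0.38 to 0.47, Isg15 from -0.28 to 0.46, Irf7 from -0.0227 to 0.81 and Oasl2 from -0.0821 to 0.58. Likewise Gbp3 ranged from -0.59 to -0.0099, Zbp1 from 0.02 to 0.97, Ddx60 from 0.18 to 0.61, Ifit2 from 0.04 to 0.84, Ifit3 from 0.08 to 0.88, Oas1a from 0.11 to 0.64, Oas1g from 0.18 to 0.90, Oas3 from 0.12 to 0.93 and Usp18 from 0.11 to 0.76. The other interferon-induced genes called ranged from 0 to 1, the 1 without Control 3, where 302 of all 13078 genes were called. In a limma fit of only the 2 groups, 13 of the 32 genes had an unadjusted p under 0.05 in D15L150 minus D15L100. Of all 13078 genes, 697 had such a p in that fit, and 0 of all genes were called. The share of the 25 genes with a match was 68% for the first motif, 72% for the second and 44% for both in frame. The cause of these shifts was not tested, and protein identity of the near copies was not compared.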

Other observations

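Rsad2 and Ifi27l2a, the least alike pair of the 32 genes, were set beside neutrophil markers after their values were seen. The ratio of Rsad2 to Ifi27l2a in FPKM was highest in D100L150 1 (0.366), D15L200 3 (0.355), D150L150 1 (0.217), D150L150 2 (0.178) and Control 1 (0.176), and its lowest value over the 18 libraries was 0.0544. The summed FPKM of the 6 neutrophil markers was highest in the same 5 libraries, at 9572 in D100L150 1, 8300 in D15L200 3, 5226 in D150L150 1, 3256 in D150L150 2 and 5991 in Control 1. These libraries came from 4 of the 6 groups. The match ended there: D15L150 1 and D15L100 3, at ranks 6 and 7 of the ratio, had ranks 11 and 14 of the neutrophil sum. Ifi27l2a was at its lowest in D100L150 1 (99.95 FPKM) and Control 1 (107.9 FPKM), which raised the ratio there. Rsad2 itself was 18.96 FPKM in Control 1. In D15L100 3 it was 36.4 FPKM with a neutrophil sum of 1133. The part of neutrophil RNA in the Rsad2 values or in the ratio was not tested.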
